A study of Mus musculus with 32 samples.

Results

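The 10 genes described here, of 47643 in the count table, set how much glucocorticoid a tissue sees and how it is received. They were chosen by name: the corticosteroid receptors Nr3c1 and Nr3c2, the regenerating enzyme Hsd11b1 with its partner H6pd, the steroid A-ring reductases Srd5a1 and Akr1d1, the plasma carrier Serpina6, the coactivators Ncoa1 and Ncoa2, and the receptor chaperone Fkbp4. All 10 Ensembl identifiers matched 1 mouse symbol each. Male C57BL/6 mice aged 10 weeks received corticosterone (cort) or ethanol vehicle (veh) in the drinking water for 7 days, on a normal-protein diet (NPD, 20% of kcal from protein) or a high-protein diet (HPD, 60%). The HPD held less starch, so that both diets matched in calories, and the mice of all groups had been fasted before necropsy. RNA from epididymal white fat (eWAT) and liver was read in 32 libraries, 4 for each tissue, treatment and diet (Veh NPD, Veh HPD, Cort NPD, Cort HPD). The labels do not say which eWAT and liver libraries came from the same mouse, and RNA came from whole tissue.

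Corticosterone, the main glucocorticoid of the mouse, circulates bound to corticosteroid-binding globulin, enters cells and binds the glucocorticoid receptor or, with higher affinity, the mineralocorticoid receptor. Inside the endoplasmic reticulum, 11β-hydroxysteroid dehydrogenase type 1 turns the inert 11-keto form back into corticosterone with NADPH that hexose-6-phosphate dehydrogenase supplies. Reduction of the steroid's A ring, by 5α-reductase or 5β-reductase, begins its clearance, which takes place mainly in liver.

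Values are given as CPM, a gene's share of the total count of its library, scaled with edgeR's TMM factors within a tissue. Sums over marker genes are on library totals, without these factors. QuantSeq primes near the 3′ end of transcripts, and counts therefore do not depend on gene length. A gene was called where the Benjamini-Hochberg adjusted p of edgeR's quasi-likelihood test, over all genes tested, was under 0.05. Total counts were 9794683 to 18057936 in eWAT and 8933307 to 17447524 in liver. Liver Veh HPD replicate 4 was left out, since its median correlation with the other liver libraries was 0.910, against 0.954 to 0.969 for the others, which leaves 31 libraries. eWAT Cort HPD replicate 4 carried a sum of 12830 CPM over 12 epididymis marker genes, against at most 12.1 CPM in the other eWAT libraries, and was kept. All 6 adipocyte markers were found in each group of both tissues, and 7 or 8 of 8 hepatocyte markers, so detection alone does not tell the tissues apart. The sums do. The adipocyte markers summed to 26185 to 35464 CPM in eWAT and 37.6 to 102 CPM in liver, the left-out library included. The hepatocyte markers summed to 950 to 3742 CPM in eWAT and 61733 to 205363 CPM in liver. Fkbp5, Tsc22d3, Per1, Zbtb16, Sgk1 and Dusp1, genes that glucocorticoids are known to move, served as a check of the treatment. Under cort, Fkbp5 alone of these 6 was called higher on the NPD in each tissue, while on the HPD none was called higher and a pair was called lower in each tissue (Sgk1 and Zbtb16 in eWAT, Per1 and Zbtb16 in liver). In eWAT the call of Zbtb16 was kept in only 4 of 16 fits that each left out 1 library.

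Serpina6, Nr3c1 and Ncoa2 had no entry in the promoter table used. Promoter windows, 250 bases before to 50 bases after the RefSeq start (GRCm38.p6), were at hand for 7 of the 10 genes. The windows of Hsd11b1, Srd5a1 and Akr1d1, which responded to cort, and of H6pd as the partner of Hsd11b1, are shown so that the elements can be seen in place, with capitals marking CCAAT boxes (CCAAT or ATTGG) and the short glucocorticoid element AGAACA or TGTTCT. Hsd11b1 lies at chr1:193242311-193242610 on the minus strand, Srd5a1 at chr13:69611414-69611713 on the minus strand, Akr1d1 at chr6:37529923-37530222 on the plus strand and H6pd at chr4:150003187-150003486 on the minus strand.
Hsd11b1: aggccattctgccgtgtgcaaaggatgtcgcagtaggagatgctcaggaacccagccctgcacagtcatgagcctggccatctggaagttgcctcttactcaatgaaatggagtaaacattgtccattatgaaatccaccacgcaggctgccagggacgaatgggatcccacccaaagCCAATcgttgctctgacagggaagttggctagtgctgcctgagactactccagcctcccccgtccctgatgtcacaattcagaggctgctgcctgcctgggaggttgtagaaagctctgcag
Srd5a1: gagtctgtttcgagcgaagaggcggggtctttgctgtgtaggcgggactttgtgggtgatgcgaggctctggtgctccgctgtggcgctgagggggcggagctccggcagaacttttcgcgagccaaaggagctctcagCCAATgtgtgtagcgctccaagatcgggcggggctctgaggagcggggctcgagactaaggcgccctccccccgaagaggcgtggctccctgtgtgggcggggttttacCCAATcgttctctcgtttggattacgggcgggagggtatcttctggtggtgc
Akr1d1: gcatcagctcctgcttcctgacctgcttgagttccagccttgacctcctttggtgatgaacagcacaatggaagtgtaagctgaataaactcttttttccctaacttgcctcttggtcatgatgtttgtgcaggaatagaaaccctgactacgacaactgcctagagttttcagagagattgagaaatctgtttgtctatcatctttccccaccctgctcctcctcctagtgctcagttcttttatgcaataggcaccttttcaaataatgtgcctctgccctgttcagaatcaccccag
H6pd: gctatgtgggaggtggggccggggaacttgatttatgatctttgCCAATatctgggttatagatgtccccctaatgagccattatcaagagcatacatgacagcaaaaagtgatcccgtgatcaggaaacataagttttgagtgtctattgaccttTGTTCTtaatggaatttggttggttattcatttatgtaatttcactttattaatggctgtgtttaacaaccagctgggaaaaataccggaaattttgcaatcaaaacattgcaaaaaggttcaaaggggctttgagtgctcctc
The full palindromic glucocorticoid response element (AGAACA and TGTTCT 3 bases apart) was in 0 of the 7 windows, and in 0.00913% of 32851 windows in RefSeq. The short element, searched on both strands, was in 2 of the 7 (H6pd and Ncoa1), against 19.0% of all windows. A CCAAT box was in 5 of the 7 (Hsd11b1, H6pd, Fkbp4, Nr3c2 and Srd5a1), against 37.4% of all windows, and the sequence TATAAA was in 0 of the 7, against 13.6%. These are matches of letters in 1 window per gene and say nothing of binding. The windows of Hsd11b1, H6pd and Nr3c2 lie inside the spans that GENCODE gives these genes, so that other start sites exist that were not searched. These spans are chromosome 1 from 193221634 to 193264075, chromosome 4 from 149979475 to 150009023, and chromosome 8 from 76899442 to 77245012.

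Before the treatment effects, the place of each gene was read from the Veh NPD mice. Liver held the clearance and carrier genes that eWAT lacked. Akr1d1 had 0 counts in all 16 eWAT libraries and 573 to 1290 counts in each Veh NPD liver library, at least 1528-fold higher in liver against a floor of 3 counts over the 4 eWAT libraries. Serpina6 had 1 count in the 16 eWAT libraries, in Veh NPD replicate 2, and 386 to 703 counts in each Veh NPD liver library. On library totals this was a ratio of 2849, with an exact 95% counting interval of 511 to 112570.

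Of the 10 genes, 8 differed between liver and eWAT in Veh NPD mice, against 62.7% of the 16482 genes tested, 6 of them higher in liver (29.0% of genes) and 2 lower (33.7%). Their median log2 difference was 1.23, over all genes -0.26. Srd5a1 was 7.30 higher in liver on the log2 scale (SE 0.61, edgeR adjusted p = 1.24e-10), Hsd11b1 2.67 higher (SE 0.31, edgeR adjusted p = 1.58e-08) and Fkbp4 1.81 higher (SE 0.16, edgeR adjusted p = 3.51e-12). Nr3c1 was lower in liver by 0.53 (log2 fold change -0.53, SE 0.15, edgeR adjusted p = 0.00224), and Ncoa1 by 1.47 (log2 fold change -1.47, SE 0.20, edgeR adjusted p = 1.02e-07). eWAT held more transcript of the glucocorticoid receptor and its coactivator, and liver more of Hsd11b1 and Srd5a1. Between tissues the scaling shifts every gene alike by about 1 on the log2 scale. On library totals Hsd11b1 was 1.64 higher in liver, Nr3c1 stood at -1.57, and H6pd turned from 0.64 (SE 0.17, edgeR adjusted p = 9.99e-04) to -0.37 (edgeR adjusted p = 0.0826). Nr3c2 did not pass the test (0.60, SE 0.57, edgeR adjusted p = 0.369).

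The first question was whether cort changed these genes in fat. In eWAT, Hsd11b1 rose under cort, 2.97-fold on the NPD and 2.62-fold on the HPD, and no other of the 8 genes that could be tested passed the threshold, on either diet. That is 1 of 8 on each diet, where 7.98% of 15187 genes were called on the NPD (4.05% higher) and 6.09% on the HPD (3.46% higher). At an unadjusted p under 0.05 the counts were 4 and 2 of 8, where 20.3% and 18.9% of all genes lay under it, and the median log2 fold change of the 8 was -0.05 and 0.18, against -0.02 and 0.00 over all genes. The plot of the eWAT genes by library shows Hsd11b1 apart on both diets. On the NPD, Nr3c1, H6pd, Ncoa2 and Fkbp4 also did not overlap between veh and cort. The remaining genes overlapped on the NPD, and every gene but Hsd11b1 overlapped on the HPD. The share of all tested genes without overlap is not given here, so the lack of overlap is a description and not a result about these genes. In bulk tissue, fewer cells of a type and less RNA per cell cannot be told apart.

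**Figure D1:**
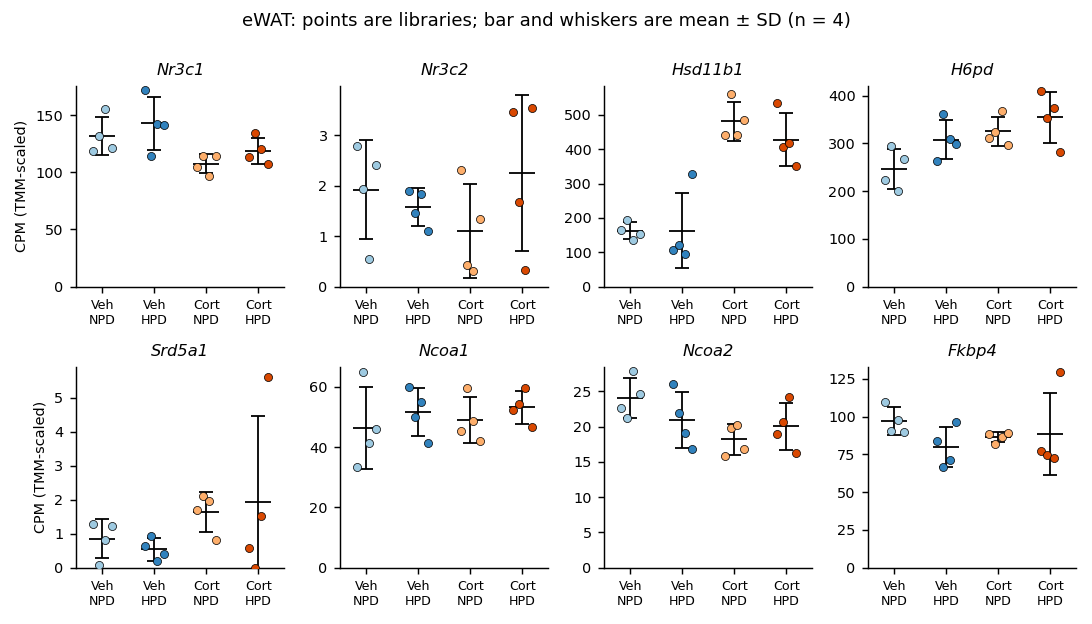
CPM (TMM-scaled, linear axes from 0) of the 8 genes tested in eWAT, by group, with 1 point per library and mean ± SD (n = 4). Hsd11b1 is at 352 to 560 CPM in the cort libraries and at 95.8 to 329 CPM in the veh libraries, and 1 Cort HPD library (replicate 4) stands apart for Srd5a1 and Fkbp4.

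Hsd11b1 (ENSMUSG00000016194) encodes the enzyme that regenerates active corticosterone. In Veh NPD its 4 libraries were at 166, 195, 136 and 152 CPM, and in Cort NPD at 441, 560, 442 and 485 CPM. Every cort library was above every veh library. The means were 162 ± 24.8 and 482 ± 56.1 CPM (SD, n = 4), a 2.97-fold rise (log2 fold change 1.57, SE 0.33, edgeR adjusted p = 0.0101), which stayed called in all 16 fits that each left out 1 library.

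On the HPD, Hsd11b1 was at 107, 123, 95.8 and 329 CPM with veh and at 536, 406, 418 and 352 CPM with cort. The groups did not overlap, but Veh HPD replicate 4, at 329 CPM, lay close to the lowest cort library. The rise was 2.62-fold (log2 fold change 1.39, SE 0.33, edgeR adjusted p = 0.0249). It was 1.98 on the log2 scale without that library. The call was lost in 5 of 16 fits that left out 1 library (without Veh HPD replicate 1, 2 or 3, or Cort HPD replicate 1 or 3, edgeR adjusted p 0.0533 to 0.0828), and where only the groups compared were fitted (1.37, edgeR adjusted p = 0.151). The rise on the HPD differed from that on the NPD by -0.18 (SE 0.46, edgeR adjusted p = 0.992), and diet itself gave 0.01 (SE 0.33) with veh, or -0.58 without Veh HPD replicate 4 (edgeR adjusted p = 0.0879), and -0.17 (SE 0.32) with cort.

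Hsd11b1 overlaps Lamb3 and 4930570N18Rik on the opposite strand, and whether the counting used strand is not given in the sources used here. The 6 stromal markers summed to 2162 to 2715 CPM in the cort libraries and to 3592 to 4290 CPM in the veh libraries of eWAT, all 6 found in each group, while the adipocyte sum was 26185 to 34399 CPM with cort and 28219 to 35464 CPM with veh. The 8 hepatocyte markers, of a cell type that also expresses Hsd11b1, summed in eWAT to 950.3 to 2224 CPM in Veh NPD and 2012 to 3742 CPM in Cort NPD, which overlapped. They summed to 1330 to 2409 CPM in Veh HPD and 2443 to 2894 CPM in Cort HPD, which did not overlap on library totals, by a narrow gap. Of these 8, 7 were found in Cort NPD and all 8 in the other groups, while the hepatic Akr1d1 had 0 counts in every eWAT library. Alb, 1 of the 8, was at 56.6 ± 9.48 CPM in Veh NPD and 62.6 ± 8.76 CPM in Cort NPD (TMM-scaled). The median sums there were 1625 and 2977 CPM, so Alb was a small part of them. On the HPD Alb was at 51.3 ± 17.5 CPM with veh and 62.9 ± 15.7 CPM with cort, and it was called on neither diet. The other hepatocyte markers are given only in the sum, so which of them carried it in eWAT, and whether from hepatocyte RNA, was not tested. The red blood cell sum on the HPD was 5388 to 9833 CPM with veh and 12525 to 25070 CPM with cort. The part of these shifts in the rise of Hsd11b1 was not tested.

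H6pd, which supplies the NADPH, was at 223, 294, 201 and 267 CPM in Veh NPD eWAT and at 312, 325, 368 and 297 CPM in Cort NPD. The groups did not overlap, with the highest veh and the lowest cort library 294 and 297 CPM, but the change did not pass the test (1.32-fold, log2 fold change 0.40, SE 0.14, edgeR adjusted p = 0.0709). It passed with DESeq2 (adjusted p = 0.0436), with only the groups compared (edgeR adjusted p = 0.0421) and in 3 of 16 fits without 1 library (Veh NPD replicate 2, Veh HPD replicate 4 or Cort HPD replicate 4). On the HPD, 308 ± 40.6 CPM with veh and 355 ± 53.6 CPM with cort overlapped (0.21, SE 0.14, edgeR adjusted p = 0.454).

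The glucocorticoid receptor Nr3c1 stood at 132 ± 16.7 CPM in Veh NPD and 143 ± 23.4 CPM in Veh HPD eWAT (SD, n = 4). With cort it stood at 108 ± 8.37 CPM on the NPD and 119 ± 11.8 CPM on the HPD. On the NPD the veh libraries (118, 131, 155 and 121 CPM) lay above the cort libraries (105, 114, 96.8 and 114 CPM), yet neither diet's difference passed the test (-0.29, SE 0.13, edgeR adjusted p = 0.192 on the NPD and -0.27, SE 0.13, edgeR adjusted p = 0.256 on the HPD). A fall of the receptor transcript was therefore not shown. The mineralocorticoid receptor Nr3c2 was near its detection limit, with 4 to 55 counts per library and 0.315 to 3.54 CPM, and overlapped between all groups.

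Among the cofactors in eWAT, the coactivator Ncoa1 was at 33.2 to 65.0 CPM over all groups and moved by 0.08 (SE 0.17) on the NPD and 0.04 (SE 0.17) on the HPD. Ncoa2, its relative, was at 22.7, 21.3, 27.9 and 24.6 CPM in Veh NPD and at 15.8, 19.8, 20.3 and 16.8 CPM in Cort NPD. These did not overlap, and the difference did not pass the test (-0.41, SE 0.18, edgeR adjusted p = 0.197). Fkbp4, the chaperone that accompanies the receptor into the nucleus, was at 90.1 to 110 CPM in Veh NPD and 81.6 to 89.1 CPM in Cort NPD (-0.17, SE 0.16, edgeR adjusted p = 0.614).

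Srd5a1 was low in eWAT, 0 to 2.11 CPM in 15 libraries and 5.60 CPM in Cort HPD replicate 4, the library with the epididymis markers. Its Cort HPD difference was 1.83 with that library (SE 1.03, edgeR adjusted p = 0.349) and 0.40 without it. In the same library Fkbp4 was at 130 CPM against 72.5 to 77.5 CPM in the rest of its group. The part of the epididymis RNA in these values was not tested.

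In liver a different set moved, shown in the plot of the liver genes by library. Under cort the carrier Serpina6 and the 5α-reductase Srd5a1 fell on both diets, the 5β-reductase Akr1d1 rose on the NPD, and Hsd11b1 did not pass the test on either. On the NPD 3 of 10 genes were called (1 higher, 2 lower), against 12.6% of 12391 genes tested (6.84% higher, 5.79% lower). On the HPD 2 of 10 were called, both lower, against 9.89% of genes (5.14% lower). At an unadjusted p under 0.05 the count was 4 of 10 on either diet, where 26.7% and 24.3% of all genes lay under it, and the median log2 fold change of the 10 was 0.11 on the NPD and -0.05 on the HPD, against -0.01 and 0.00 over all genes.

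**Figure D2:**
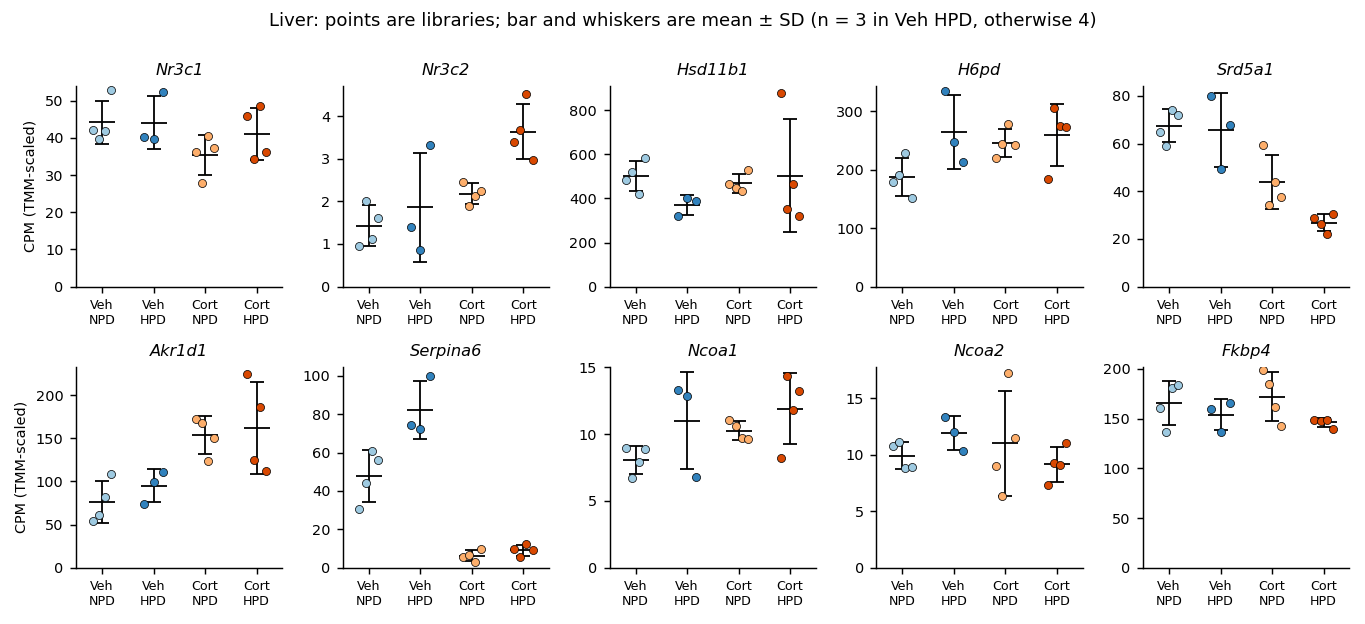
CPM (TMM-scaled, linear axes from 0) of the 10 genes in liver, by group, with 1 point per library and mean ± SD (n = 3 in Veh HPD, otherwise 4). Serpina6 is at 30.5 to 99.9 CPM in the veh libraries and 2.88 to 12.3 CPM in the cort libraries.

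Serpina6 (ENSMUSG00000060807, chromosome 12 from 103646630 to 103657212, minus strand) encodes corticosteroid-binding globulin, the plasma protein that holds most circulating corticosterone. Its Veh NPD libraries were at 30.5, 44.2, 60.9 and 56.3 CPM, and its Cort NPD libraries at 5.46, 6.73, 2.88 and 9.60 CPM. On the HPD the 3 veh libraries were at 74.6, 72.2 and 99.9 CPM and the cort libraries at 9.66, 5.47, 12.3 and 9.06 CPM. No cort library came near a veh library on either diet.

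The level fell by 2.95 on the log2 scale on the NPD, from 48.0 ± 13.6 to 6.17 ± 2.80 CPM (SE 0.32, edgeR adjusted p = 1.61e-05), and by 3.18 on the HPD, from 82.3 ± 15.4 to 9.13 ± 2.82 CPM (SE 0.33, edgeR adjusted p = 1.60e-05). These were changes to 0.130 and 0.110 of the veh level. Both calls were kept in all 15 fits that left out 1 library, and in all 8 other alternatives. The change on the HPD differed from that on the NPD by -0.23 (SE 0.45, edgeR adjusted p = 0.867). With veh, the HPD libraries lay above the NPD libraries, 0.78 on the log2 scale (SE 0.31, edgeR adjusted p = 0.430), which did not pass the test.

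Srd5a1 (ENSMUSG00000021594, chromosome 13 from 69573449 to 69611442, minus strand) encodes the type 1 5α-reductase. It was at 65.0, 59.0, 74.0 and 72.0 CPM in Veh NPD liver and at 59.6, 34.4, 44.0 and 37.4 CPM in Cort NPD, where 1 cort library (59.6 CPM) overlapped the veh range. On the HPD it was at 80.1, 49.3 and 68.0 CPM with veh and at 28.9, 26.2, 22.0 and 30.4 CPM with cort, with no overlap. The Cort HPD libraries were the lowest of all 15.

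Srd5a1 fell by 0.62 on the NPD (SE 0.18, edgeR adjusted p = 0.0228) and by 1.29 on the HPD, to 0.408 of the veh level (SE 0.19, edgeR adjusted p = 1.33e-04). Among cort mice the HPD gave a lower level than the NPD (log2 fold change -0.71, SE 0.18, edgeR adjusted p = 0.0222), with no overlap. This was the 1 call among the 10 genes, where 5.88% of genes were called (2.8% lower), with 2 of 10 at an unadjusted p under 0.05 against 21.3% of genes. The test of whether diet changed the cort effect itself did not pass (-0.67, SE 0.26, edgeR adjusted p = 0.305), and 0 of 10 genes were called there, against 0.113% of genes, with 1 of 10 at an unadjusted p under 0.05 against 12.1% of genes. DESeq2 and limma voom also called 0.

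The calls of Srd5a1 on the NPD and between diets were each lost in 4 of 15 fits without 1 library, at edgeR adjusted p up to 0.0860 and 0.0874. On the NPD these left out Veh NPD replicate 3 or 4, or Cort NPD replicate 2 or 4. Between diets they left out Cort NPD replicate 1 or 3, or Cort HPD replicate 2 or 3. With the left-out liver library included, all 3 calls were lost (edgeR adjusted p = 0.385 on the NPD, 0.151 on the HPD and 0.388 between diets). That library held 16.3 CPM of Srd5a1, on library totals, against 48.9 to 88.8 CPM in the other 3 Veh HPD libraries. Srd5a1 overlaps Nsun2 on the opposite strand.

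Akr1d1 (ENSMUSG00000038641, chromosome 6 from 37530173 to 37568815, plus strand) encodes the 5β-reductase, which also acts in bile acid synthesis. It was at 54.2, 60.8, 81.7 and 109 CPM in Veh NPD liver and at 172, 168, 124 and 151 CPM in Cort NPD. All cort libraries were above all veh libraries. It rose 2.01-fold (log2 fold change 1.01, SE 0.23, edgeR adjusted p = 0.00699), in all 15 fits without 1 library, though with the left-out library included the adjusted p was 0.0555.

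On the HPD, Akr1d1 was at 74.3, 99.6 and 111 CPM with veh and at 224, 125, 187 and 112 CPM with cort. The groups nearly touched (111 against 112 CPM), and the difference did not pass the test (1.70-fold, log2 fold change 0.77, SE 0.25, edgeR adjusted p = 0.0609). It passed with DESeq2 (adjusted p = 0.0283), with all liver libraries (edgeR adjusted p = 0.0488) and in 4 of 15 fits without 1 library (Veh NPD replicate 1 or 4, or Cort HPD replicate 2 or 4). The interaction of diet and cort was -0.24 (SE 0.34, edgeR adjusted p = 0.809).

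The reductases thus moved in opposite directions in the NPD mice. In counts, where the scaling cancels, Akr1d1 to Srd5a1 stood at 0.835, 1.03, 1.10 and 1.52 in the Veh NPD libraries and at 2.89, 4.87, 2.81 and 4.04 in the Cort NPD libraries. In Veh HPD the ratio was 0.928, 2.02 and 1.64, and in Cort HPD 7.77, 4.77, 8.51 and 3.67. The fitted veh and cort libraries did not overlap on either diet. The left-out Veh HPD replicate 4 held 700 counts of Akr1d1 and 220 of Srd5a1. Its ratio lay above the fitted veh libraries and within the Cort NPD range, so the gap depends on leaving it out. The ratio is given as a description with no test, since the genes were seen to diverge first.

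**Figure D3:**
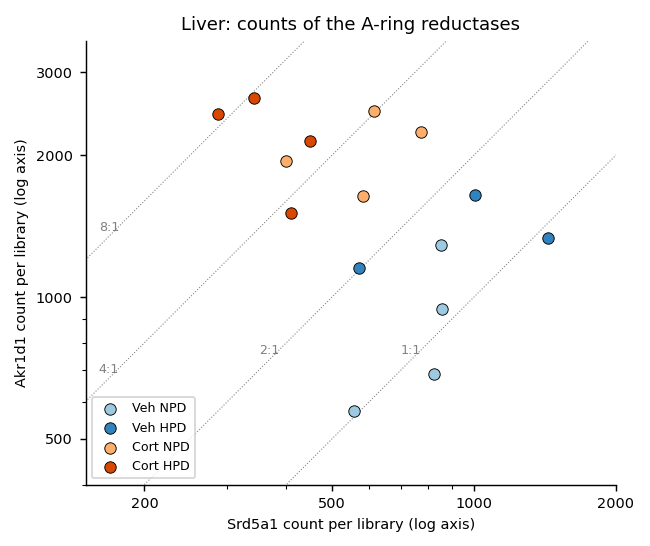
Counts of Akr1d1 against Srd5a1 in each of 15 liver libraries (both axes log), with dotted lines of equal ratio (1:1, 2:1, 4:1 and 8:1). The veh libraries shown lie at ratios from 0.835 to 2.02 and the cort libraries at 2.81 to 8.51. The left-out Veh HPD replicate 4 (700 counts of Akr1d1, 220 of Srd5a1) is not shown, and its ratio is within the Cort NPD range.

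Hsd11b1 was among the more abundant of these genes in liver and was not shown to change. It was at 485, 521, 418 and 585 CPM in Veh NPD and at 467, 445, 434 and 529 CPM in Cort NPD (-0.10, SE 0.23, edgeR adjusted p = 0.840). On the HPD it was at 318, 404 and 390 CPM with veh and at 880, 350, 467 and 320 CPM with cort (0.44, SE 0.25, edgeR adjusted p = 0.297), where Cort HPD replicate 1, at 880 CPM, set the difference: without it the value was 0.03. In that library the 10 most abundant genes held 42.2% of counts, against 32.8% to 34.0% in the other 3. On library totals the HPD difference of Hsd11b1 was 0.14 (edgeR adjusted p = 0.675). With veh, the HPD libraries lay below the NPD libraries (-0.44, SE 0.25, edgeR adjusted p = 0.612).

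H6pd in liver was at 178, 190, 229 and 152 CPM in Veh NPD and 220, 244, 277 and 241 CPM in Cort NPD, which overlapped (0.39, SE 0.18, edgeR adjusted p = 0.153). On the HPD it was at 265 ± 62.9 and 259 ± 52.3 CPM (-0.03, SE 0.19, and -0.25 on library totals, edgeR adjusted p = 0.505). So the enzyme and its partner were not shown to move in liver on either diet.

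Neither receptor was called under cort in liver. Nr3c1 was at 44.2 ± 5.83 CPM in Veh NPD, 44.0 ± 7.12 CPM in Veh HPD (n = 3), 35.4 ± 5.40 CPM in Cort NPD and 41.2 ± 7.00 CPM in Cort HPD (SD, n = 4). Cort gave -0.32 on the NPD (SE 0.16, edgeR adjusted p = 0.208) and -0.10 on the HPD (SE 0.17, edgeR adjusted p = 0.771). Neither passed the test. The HPD value depended on the scaling and was -0.36 on library totals (edgeR adjusted p = 0.183). Nr3c2 was at 0.948, 2.02, 1.13 and 1.61 CPM in Veh NPD, 1.39, 0.864 and 3.31 CPM in Veh HPD, 2.46, 1.90, 2.12 and 2.25 CPM in Cort NPD, and 3.39, 3.66, 4.51 and 2.97 CPM in Cort HPD. Its Cort HPD difference of 0.95 (SE 0.37, edgeR adjusted p = 0.109) overlapped through Veh HPD replicate 3, and passed without that library (1.65, edgeR adjusted p = 0.0120) and with limma voom (1.11, adjusted p = 0.0441).

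The cofactors in liver gave no call. Ncoa1 was at 8.09 ± 1.05 CPM in Veh NPD and 10.3 ± 0.702 CPM in Cort NPD, with no overlap (0.34, SE 0.21, edgeR adjusted p = 0.331), and on the HPD at 13.3, 12.9 and 6.82 CPM with veh and 8.22, 14.4, 11.8 and 13.2 CPM with cort. Ncoa2 was at 6.38 to 17.3 CPM over all groups. Fkbp4 was at 137 to 199 CPM, and its cort differences were 0.05 (SE 0.14) on the NPD and -0.08 (SE 0.15) on the HPD. On library totals its HPD difference was -0.32 (edgeR adjusted p = 0.186).

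The 8 hepatocyte markers summed to 122468 to 205363 CPM in the cort libraries of liver and 61733 to 121068 CPM in the veh libraries, the left-out library included, all 8 found in each group, and the 6 macrophage markers to 88.2 to 191 CPM with cort and 166 to 539 CPM with veh. On the HPD the 5 red blood cell markers summed to 1898 to 3849 CPM with veh and 4632 to 6942 CPM with cort, and the 5 endothelial markers to 56.1 to 80.1 CPM with veh and 21.9 to 39.7 CPM with cort, all 5 of each found in both groups and the left-out library included. On the NPD both sums overlapped between veh and cort. The part of these shifts in the changes of Serpina6, Srd5a1 and Akr1d1 was not tested.

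**Figure D4:**
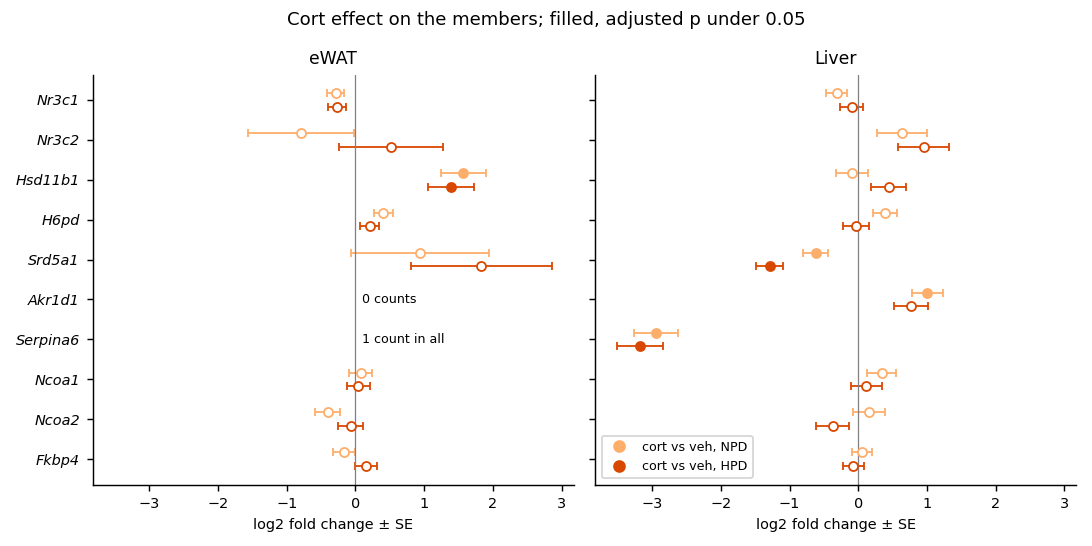
Log2 fold change ± SE of cort against veh for the 10 genes on the NPD and the HPD, in eWAT and liver (linear axis). Filled points have an edgeR adjusted p under 0.05: Hsd11b1 in eWAT on both diets, Serpina6 and Srd5a1 in liver on both diets, and Akr1d1 in liver on the NPD.

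Diet alone gave little in these genes. With veh, 0 of 8 in eWAT and 0 of 10 in liver were called by edgeR, DESeq2 or limma voom, against 0.0593% and 0.169% of genes, with 1 and 2 at an unadjusted p under 0.05, where 8.03% and 9.4% of genes lay under it. Those were H6pd in eWAT (0.32, SE 0.14) and H6pd (0.50, SE 0.19) and Serpina6 (0.78, SE 0.31) in liver. With cort, 0 of 8 in eWAT were called by edgeR, DESeq2 or limma voom, against 0.487% of genes, with 0 at an unadjusted p under 0.05 against 9.81% of genes. The interaction in eWAT also called 0 of 8 by these tools, against 0.0132% of genes, with 0 at an unadjusted p under 0.05 against 5.16% of genes.

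Whether cort acted differently in the tissues was tested in a fit of both. On the NPD, Hsd11b1 was the 1 call of 8, against 3.85% of 16482 genes (1.35% lower in liver), and stayed called in all 31 fits without 1 library: its cort effect was lower in liver than in eWAT by 1.63 (log2 difference -1.63, SE 0.42, edgeR adjusted p = 0.0214). On the HPD its difference was -0.98 (SE 0.43, edgeR adjusted p = 0.247), and it passed without eWAT Veh HPD replicate 4 (-1.52, edgeR adjusted p = 0.00331) or without liver Cort HPD replicate 1 (-1.40, edgeR adjusted p = 0.0407). With all liver libraries the NPD difference was -1.66 (edgeR adjusted p = 0.104).

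On the HPD the 1 call of 8, against 3.12% of genes (2.01% lower in liver), was Srd5a1 (log2 difference -3.23, SE 0.82, edgeR adjusted p = 0.0280). It rests on few counts in eWAT. Without eWAT Cort HPD replicate 4 it was -1.79 (edgeR adjusted p = 0.227), and it was lost in 5 other fits without 1 library: without eWAT Veh HPD replicate 1, 3 or 4, or without liver Veh HPD replicate 1 or 3 (edgeR adjusted p 0.0541 to 0.0717). limma voom gave no call, nor did a fit restricted to the compared groups (-2.13, adjusted p = 0.363, and -3.16, edgeR adjusted p = 0.156). Akr1d1 and Serpina6, at or near 0 counts in eWAT, have no cort effect there to compare.

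Beside the 10 genes, a further 64 in 7 lists were examined, among them receptor chaperones, coregulators, partners of the 11β-dehydrogenases, and steroid clearance, synthesis and transport. In eWAT 1 was higher and 3 were lower under cort of 42 tested on the NPD, where 7.98% of all genes were called (median log2 fold change 0.07, over all genes -0.02). On the HPD 0 were higher and 2 lower of 42, where 6.09% of all genes were called (median -0.02, over all genes 0.00). Fkbp5, the chaperone that dampens receptor activity, went from 57.5 ± 14.4 to 192 ± 23.2 CPM on the NPD (1.74, SE 0.39, edgeR adjusted p = 0.0156), and stood at 96.0 ± 60.7 CPM with veh and 146 ± 22.5 CPM with cort on the HPD (0.60, SE 0.38, edgeR adjusted p = 0.446). The NPD call was lost without Veh NPD replicate 3 (edgeR adjusted p = 0.055). The difference between diets was -1.14 (SE 0.54, edgeR adjusted p = 0.954). Abcc1, an exporter of corticosterone in fat cells, fell by 0.63 on the NPD (SE 0.15, edgeR adjusted p = 0.00754) and 0.64 on the HPD (log2 fold change -0.64, SE 0.15, edgeR adjusted p = 0.00898).

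Akr1c14, a 3α-hydroxysteroid dehydrogenase, had 3 to 19 counts in each Veh NPD library and 0 in Cort NPD, at least 12.9-fold lower against a floor of 3 counts over the group. On the HPD it had 93 counts with veh and 1 with cort, a ratio of 75.4 (exact 95% counting interval 13.2 to 3011). The calls were lost in many of the 16 fits without 1 library, among them each fit without a Cort NPD library on the NPD, and were kept in 9 on the NPD and 7 on the HPD. None of the 13 coregulators was called on either diet.

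In liver 51 of the 64 were tested, and 9 were higher and 4 lower with cort on the NPD, where 12.6% of all genes were called (median 0.10, over all genes -0.01). On the HPD 12 were higher and 3 lower, where 9.89% of all genes were called (median 0.17, over all genes 0.00). Steroid clearance held 7 of these on the NPD (4 higher, 3 lower of 15 tested) and 8 on the HPD (6 higher, 2 lower). The plot of the called liver pathway genes shows 17 of them.

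**Figure D5:**
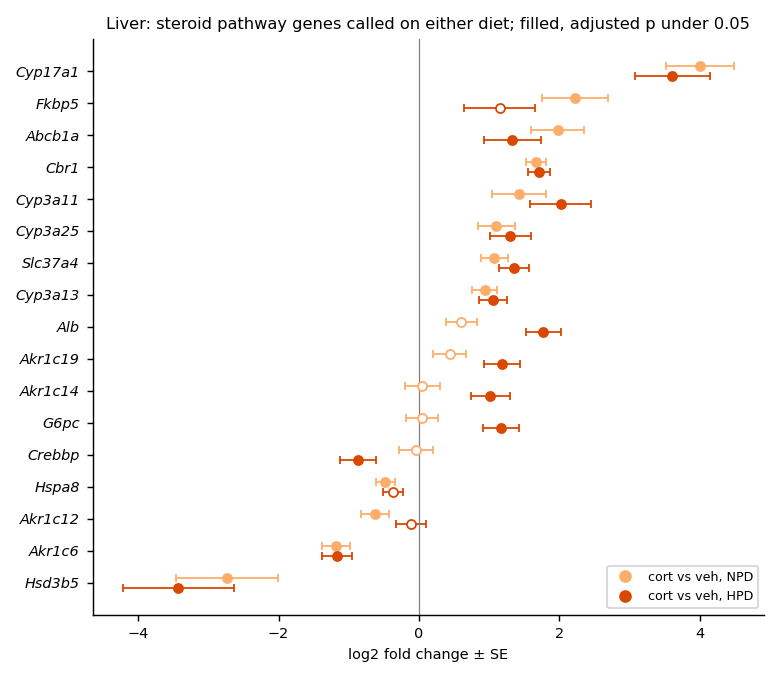
Log2 fold change ± SE of cort against veh in liver (linear axis) for 17 genes of the 7 steroid pathway lists called on at least 1 diet, ordered by the NPD value. Filled points have an edgeR adjusted p under 0.05, and Cyp17a1 is farthest to the right of these genes on both diets (16.1-fold and 12.2-fold).

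Among them Cbr1, a carbonyl reductase that acts on corticosterone in the mouse, went from 60.9 ± 8.88 to 194 ± 20.2 CPM on the NPD (1.67, SE 0.14, edgeR adjusted p = 5.09e-08) and from 61.8 ± 7.90 to 202 ± 16.3 CPM on the HPD (1.71, SE 0.16, edgeR adjusted p = 3.16e-07). Cyp17a1, the 17-hydroxylase and lyase, went from 31.2 ± 24.0 to 502 ± 65.7 CPM (16.1-fold, SE 0.48 on the log2 scale, edgeR adjusted p = 1.53e-04) and from 54.3 ± 25.5 to 662 ± 33.1 CPM (12.2-fold, SE 0.53 on the log2 scale, edgeR adjusted p = 0.00109). With all liver libraries the HPD value of Cbr1 was 0.70 (edgeR adjusted p = 0.34).

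Cyp3a13 and Cyp3a25, steroid hydroxylases, rose on both diets, by 0.94 and 1.11 on the NPD and by 1.05 and 1.30 on the HPD. Akr1c19 rose on the HPD (1.19, SE 0.26, edgeR adjusted p = 0.00636), to 144 ± 39.3 CPM, and was higher in Cort HPD than in Cort NPD (1.67, SE 0.24, edgeR adjusted p = 4.59e-04). A difference between diets in its cort effect did not pass the test (0.75, SE 0.35, edgeR adjusted p = 0.395). Akr1c6, a 17β-hydroxysteroid dehydrogenase, fell by 1.19 on the NPD (SE 0.20, edgeR adjusted p = 3.56e-04) and 1.17 on the HPD (log2 fold change -1.17, SE 0.21, edgeR adjusted p = 0.00109), and Hsd3b5 by 2.74 and 3.43 (log2 fold changes -2.74 and -3.43). The Cyp3a, Akr1c and Hsd3b genes are families of close copies, so reads may be shared between members and each value is uncertain. Hsd3b5 lost its NPD call in 6 of 15 fits without 1 library (Veh NPD replicate 1, 2, 3 or 4, or Cort NPD replicate 3 or 4) and its HPD call in 3 (Veh HPD replicate 3, or Cort HPD replicate 2 or 3), and with all liver libraries on both diets. Akr1c12 was also called lower on the NPD (-0.63, SE 0.20, edgeR adjusted p = 0.0401), a call kept in 10 of 15 such fits.

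Of the partners, Slc37a4, which carries glucose-6-phosphate into the endoplasmic reticulum where H6pd uses it, rose 2.11-fold on the NPD (SE 0.20 on the log2 scale, edgeR adjusted p = 7.22e-04) and 2.55-fold on the HPD (SE 0.22, edgeR adjusted p = 3.24e-04). G6pc, which competes for the same substrate, was called on the HPD (1.17, SE 0.26, edgeR adjusted p = 0.00594) and was 0.04 (SE 0.23) on the NPD. The difference between diets did not pass the test (1.13, SE 0.34, edgeR adjusted p = 0.196). Hsd11b2, the inactivating enzyme, had 0 counts in the 15 liver libraries.

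Among chaperones, coregulators and transporters in liver, Fkbp5 went from 40.4 ± 20.9 to 189 ± 42.2 CPM on the NPD (2.23, SE 0.48, edgeR adjusted p = 0.00939) and from 42.7 ± 31.8 to 94.5 ± 18.3 CPM on the HPD (1.15, SE 0.51, edgeR adjusted p = 0.188). Albumin, which also binds corticosterone in plasma, went from 38882 ± 5765 to 132805 ± 47656 CPM on the HPD (1.77, SE 0.25, edgeR adjusted p = 9.60e-05) while Serpina6 fell. A difference between diets in the cort effect on albumin did not pass the test (1.17, SE 0.33, edgeR adjusted p = 0.167). Abcb1a, an exporter of steroids, rose on the NPD from 1.06 ± 0.453 to 4.21 ± 2.08 CPM (1.98, SE 0.38, edgeR adjusted p = 0.00114) and on the HPD from 1.14 ± 0.202 to 2.87 ± 0.937 CPM (1.33, SE 0.41, edgeR adjusted p = 0.0405). The HPD call was lost in 7 of 15 fits without 1 library (Veh HPD replicate 1, 2 or 3, Cort NPD replicate 3, or Cort HPD replicate 1, 2 or 4) and in 5 of 8 alternatives, and its difference between diets was -0.65 (SE 0.55, edgeR adjusted p = 0.659). Hspa8, a chaperone of the receptor complex, fell by 0.48 on the NPD (SE 0.13, edgeR adjusted p = 0.0206). Crebbp was the only coregulator called, lower by 0.87 on the HPD (log2 fold change -0.87, SE 0.26, edgeR adjusted p = 0.0381), and lost in 5 of 15 fits without 1 library (Veh HPD replicate 1 or 2, or Cort HPD replicate 1, 2 or 4).

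The genes most like the receptor and the regenerating enzyme across libraries were listed by Pearson correlation of log2 CPM, as a description, since libraries of a tissue share treatment and depth effects. Over the 16 eWAT libraries, Hsd11b1 was nearest to Gsta3 (r = 0.968), Cyb5a (0.961) and Prdx6 (0.952), and Nr3c1 to Atad2b (0.861), Parp10 (0.843) and Csf2rb2 (0.837). Over the 15 liver libraries Hsd11b1 was nearest to Psmb1 (0.944), Timm8b (0.922) and Rfesd (0.921), and Nr3c1 to Kat2b (0.841), Gm45753 (0.834) and Ugt2b34 (0.827).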

How the data were processed

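QuantSeq 3′ RNA libraries of eWAT and liver were analysed from the table of raw counts per Ensembl gene deposited by the authors, with 1 column per library and no normalization. The submitters' notes name GRCm38/mm10, R 4.0.3 and limma, while the aligner, the counting program and its strand setting are not given in the sources used here. All count columns were mapped to samples by the labels. GENCODE M21 (GRCm38) gave 47224 IDs a symbol and position, and 419 IDs had no match.

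Counts were fitted in R 4.3.3 with edgeR 4.0.16: filterByExpr (minimum count 10, minimum total count 15), TMM factors, 1 mean per group and robust quasi-likelihood tests, for each tissue alone and for both together, with p-values adjusted over all genes tested. Liver was fitted with 15 libraries, without Veh HPD replicate 4, whose correlation with the other liver libraries was the lowest. Standard errors are the absolute log2 fold change over the square root of F. Members, pathway lists, markers and tests were chosen with earlier results of these data known. Named genes were the 10 members, up to 3 called genes per direction and pathway list with the smallest p, the treatment check genes, and the 3 genes most correlated with Nr3c1 or Hsd11b1 in each tissue.

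Alternatives were RLE factors, library totals, DESeq2 1.42.0, limma 3.58.1 voom, no filter, only the groups compared, a replicate block, the full set of liver libraries, and each library left out. Counts of all genes and of pathway genes called under these were added after seeing the data. Total counts of 8933307 to 18057936 limit low genes, such as Nr3c2 and, in eWAT, Srd5a1. Counting intervals and floors cover counting error only. Over 48 pairs of replicates the mean chi-squared per gene was 15.3 to 207, where counting noise gives about 1, and 0 pairs were identical. The labels number the libraries of a group as replicates, and p-values measure the spread between these libraries. 1 pathway gene enters the counts of its lists and is not reported here. The steps were tested on data simulated with 1 dispersion (0.05) and 200 genes changed by 2 on the log2 scale. Of these, 99.5% to 100% were recovered, and 1.97% to 6.98% of calls were false. The changed genes were drawn from the better expressed, so the test does not cover low genes or smaller changes.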

Additional observations from a re-analysis of the deposited data

Results flagged for a closer look

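Of 63 groups of 4 libraries examined, 4 held a library far from the others by Dixon's criterion, and chance gives about 1 in 20. Hsd11b1 in eWAT Veh HPD replicate 4 was at 329 CPM, against 95.8 to 123 CPM in the other 3. Fkbp4 in eWAT Cort HPD replicate 4, the library with epididymis markers, was at 130 CPM, against 72.5 to 77.5 CPM. Fkbp4 in liver Cort HPD replicate 4 was at 139 CPM, against 148 to 149 CPM, a small gap in a tight group. Serpina6 in eWAT Veh NPD replicate 2 was at 0.0745 CPM, which is 1 count, against 0 in the other 3.

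The cort effect differed between liver and eWAT for 2 genes by a test of the difference itself. For Hsd11b1 on the NPD it was -1.63 on the log2 scale (SE 0.42, edgeR adjusted p = 0.0214), and for Srd5a1 on the HPD -3.23 (SE 0.82, edgeR adjusted p = 0.0280), the latter on few counts in eWAT.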

How the results depend on the processing

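The calls of Serpina6 in liver on both diets and of Hsd11b1 in eWAT on the NPD were kept under every alternative and every left-out library. The number of the 10 genes called in eWAT on the NPD was 1, and 2 with DESeq2 or only the groups compared (1 to 2 without 1 library). On the HPD in eWAT it was 1, and 0 with only the groups compared (0 to 1 without 1 library). In liver it was 3 on the NPD, and 1 with all liver libraries (2 to 3 without 1 library). On the HPD in liver it was 2, and 3 with DESeq2, where Akr1d1 was gained, or limma voom, where Nr3c2 was gained, and 2 with all liver libraries, where Akr1d1 was gained and Srd5a1 lost (2 to 3 without 1 library). Between diets with cort it was 1, and 0 with all liver libraries (0 to 1). The tissue difference on the NPD called 1, and 0 with all liver libraries. On the HPD it called 1, and 0 with limma voom, all liver libraries or only the groups compared (0 to 2 without 1 library). With library totals, H6pd in liver against eWAT changed sign to -0.37, as the scaling shifts every gene alike by about 1 between tissues. Nr3c2, which was not called, also changed sign, to -0.42 (edgeR adjusted p = 0.523), and counts as a move. Beside the reversal of H6pd, the members' changes in label were 43 moves, 16 gained and 28 lost calls, with 2978 alike.

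Over all genes, calls ranged across alternatives from 1144 to 1535 in eWAT on the NPD, 643 to 1188 on the HPD, 998 to 1889 in liver on the NPD and 839 to 1547 on the HPD. The interaction called 0 to 9 in eWAT and 1 to 125 in liver. HPD against NPD with veh called 4 to 129 in eWAT and 7 to 111 in liver, and with cort 67 to 195 and 371 to 1075.

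Same-numbered replicates did not deviate together: 1 of 24 pairs in eWAT and 3 of 21 in liver had a correlation over 0.1. With the replicate number as a block the count of members called stayed at 1 in eWAT on either diet and at 3 and 2 in liver. Depth limits Nr3c2 and, in eWAT, Srd5a1, and 3 or 4 libraries per group limit the rest.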

Other observations

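The liver library left out of the fits, Veh HPD replicate 4, lay outside the range of the other 3 of its group in most of these genes, given here as CPM on library totals. Hsd11b1 was at 103 CPM, against 353 to 431 CPM, and Srd5a1 at 16.3 CPM, against 48.9 to 88.8 CPM. Akr1d1 was at 51.8 CPM, against 82.5 to 123 CPM. H6pd was at 199 CPM, against 235 to 371 CPM, and Nr3c1 at 36.4 CPM, against 39.3 to 57.7 CPM. Fkbp4, at 134 CPM, was just below 136 to 183 CPM. Ncoa1 was higher, at 17.6 CPM against 7.54 to 14.8 CPM, as was Ncoa2, at 16.4 CPM against 11.4 to 14.9 CPM. Serpina6, at 93.0 CPM, lay within the range of the other 3 (71.7 to 110 CPM), as did Nr3c2.

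Hsd11b2, which inactivates corticosterone, had 1 to 21 counts per library in Cort NPD eWAT and 0 to 9 counts in Cort HPD eWAT, too few to pass the filter.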
